A study of Mus musculus with 4 samples.

Results

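The clustered histone genes of the mouse were examined in DNA methylation data from hippocampal microglia. They were taken as the histone genes of the autosomal clusters on chromosomes 13, 3 and 11, by their older symbols beginning with Hist1h, Hist2h or Hist3h or by their newer symbols, among the genes that RefSeq annotates on GRCm38.p6 (mm10). This gave 69 genes, 66 protein-coding and 3 pseudogenes, of 33076 autosomal genes considered. By role they were 6 genes of linker histone H1, 20 of H2A, 19 of H2B, 12 of H3 and 12 of H4. Each gene was taken with 1000 bp on either side, and this stretch is called its region below.

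Nucleosomes are built from the core histones H2A, H2B, H3 and H4, and the linker histone H1 binds the DNA between them. Most genes of these clusters are short, have no introns and are transcribed while DNA is replicated, and their mRNAs end in a stem-loop in place of a poly(A) tail. A few members are instead expressed in the male germ line. Methylation of CpGs around the start of a gene is commonly found at genes that are silent in a tissue, and starts of genes in use are commonly free of it.

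The study compared 2 libraries of mice with fetal growth restriction, labelled FGR, with 2 control libraries, at 3 weeks after birth. Mice of both groups were Tmem119-tdTomato+/-, and thus carried a red fluorescent reporter tied to a microglial gene. The sources used here state neither how growth restriction was induced nor whether a library is 1 animal or a pool. All p-values therefore measure only the spread between these libraries, which may be technical.

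The measurement was whole-genome bisulfite sequencing, in which unmethylated cytosines are read as T. A level is the share of reads that were methylated, in percent, summed over the CpGs of a stretch in 1 library. The tables held 7615146 and 13578464 cytosines in FGR replicates 1 and 2, and 9335713 and 10023353 in control replicates 1 and 2. No cytosine with a coverage under 5 was listed, so each library listed its own set of CpGs. The autosomal level was 74.6% and 75.6% in FGR libraries and 76.0% and 76.4% in control libraries. Regions of 8 microglial marker genes had median levels between 33.8% and 39.2%, and those of 4 neuronal markers between 69.8% and 71.7%. By mean over the libraries, microglial markers ran from 20.3% at Cx3cr1 to 62.97% at Siglech, and neuronal markers from 64.7% at Snap25 to 73.9% at Syt1. Medians of astrocyte, oligodendrocyte, endothelial and lymphocyte markers lay between 71.9% and 88.0%, with the endothelial gene Cldn5 at a mean of 30.5%. Member regions held 2607 CpGs listed in at least 1 library, of which 160 were listed in all 4. Neighbouring regions overlap for 57 of the 69 members, and 880 of these CpGs belong to more than 1 region, so members are not independent of each other.

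The contrast between testis and somatic histone genes is seen in the promoter windows of 4 genes of the distal group on chromosome 13, where all 3 testis genes lie. Each window spans 250 bases before to 50 after the annotated start. They are shown because H2bc1 (chr13:23934107-23934406, minus strand) and H1f6 (chr13:23695561-23695860, plus strand) are testis histone genes, whereas H2bc8 (chr13:23571150-23571449, plus strand) and H1f4 (chr13:23622509-23622808, minus strand) encode somatic histones of the same 2 families. The sequences are from RefSeq, build GRCm38.p6, written 5′ to 3′ with each CpG in capitals.

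H2bc1: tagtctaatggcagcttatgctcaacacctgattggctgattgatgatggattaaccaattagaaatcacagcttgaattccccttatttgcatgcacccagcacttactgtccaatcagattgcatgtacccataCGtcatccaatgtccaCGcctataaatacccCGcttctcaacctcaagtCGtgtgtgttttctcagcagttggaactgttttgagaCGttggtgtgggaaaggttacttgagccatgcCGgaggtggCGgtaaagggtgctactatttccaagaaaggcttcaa
H2bc8: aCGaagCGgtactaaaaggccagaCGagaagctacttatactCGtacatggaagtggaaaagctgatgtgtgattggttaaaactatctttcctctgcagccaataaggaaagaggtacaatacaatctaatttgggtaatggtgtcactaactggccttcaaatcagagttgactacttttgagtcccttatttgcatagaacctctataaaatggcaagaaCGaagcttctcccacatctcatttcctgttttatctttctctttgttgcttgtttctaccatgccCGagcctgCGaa
H1f6: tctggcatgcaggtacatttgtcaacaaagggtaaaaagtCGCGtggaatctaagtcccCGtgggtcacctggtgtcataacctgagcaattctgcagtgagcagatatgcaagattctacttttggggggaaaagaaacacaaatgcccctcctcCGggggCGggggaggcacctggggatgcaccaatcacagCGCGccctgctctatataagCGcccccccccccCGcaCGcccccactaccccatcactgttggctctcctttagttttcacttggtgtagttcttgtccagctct
H1f4: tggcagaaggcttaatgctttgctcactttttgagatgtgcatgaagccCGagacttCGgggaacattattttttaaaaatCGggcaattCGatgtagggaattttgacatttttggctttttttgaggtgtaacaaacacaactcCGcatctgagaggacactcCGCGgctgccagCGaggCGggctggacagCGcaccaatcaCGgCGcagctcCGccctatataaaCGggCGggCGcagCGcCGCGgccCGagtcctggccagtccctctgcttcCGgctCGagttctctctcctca

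The windows of H2bc1 and H2bc8 each hold 7 CpGs, yet their levels lay at opposite ends of the scale. These levels rest on part of the CpGs, with 4 listed in FGR replicate 2 and in control replicate 2 for H2bc1, and 3 or 4 in each library for H2bc8. In H2bc1, 30 of 33 reads were methylated in FGR replicate 2 (90.9%, Wilson 95% interval 76.4 to 96.9%) and 28 of 30 in control replicate 2 (93.3%, 78.7 to 98.2%), and the other two libraries listed none of its CpGs. In H2bc8, methylated reads were 0 of 26 and 0 of 21 in FGR libraries and 0 of 20 and 0 of 21 in control libraries. Counts of 0 at these depths allow levels of up to 11.5% and 14.3% in FGR libraries and 15% and 14.3% in control libraries. Intervals and limits, here and below, cover no more than counting error and treat each read at each CpG as independent. Reads are not tagged by molecule and 1 read counts at each CpG it covers, so they can be too narrow even for counting error.

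H1f6 encodes H1t, the linker histone of spermatocytes. It had 12 of 17 reads methylated in FGR replicate 2 (70.6%, 46.9 to 86.7%), the only library that listed CpGs of its window, 3 of its 10. H1f4, a somatic linker histone, has 22 CpGs in its window, of which 2 to 21 were listed in a library. It had 0 of 53 and 1 of 116 methylated reads in FGR libraries and 0 of 27 and 0 of 11 in control libraries. H2ac1, which encodes the testis H2A, is transcribed away from H2bc1 and its window shares 220 bp with that of H2bc1. Its window had a level of 90% over 60 reads in FGR replicate 2, against 87.7% over 57 reads and 91.7% over 48 reads in control libraries. FGR replicate 1 listed none of the CpGs of the 3 testis windows.

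Methylation was nearly absent at the starts of the other members. A promoter window was found for 61 members, 1 of them with 2 windows, and 59 of these 62 windows belonged to genes other than the 3 testis genes. The pooled level over these 59 windows was 0.437% and 1.08% in FGR libraries and 1.07% and 1.18% in control libraries, over 1145 to 2410 reads a library. Windows of some neighbouring H2A and H2B genes overlap, and reads in an overlap are counted for each window. The same holds for the counts of windows and for the comparisons by CpG number and by distance below. The 31334 windows of other autosomal genes had 26.1% and 33.5% in FGR libraries and 32.5% and 34.9% in control libraries. Of the 59 windows, 52 had a listed CpG in some library, 13 had one in all 4 and 7 were never listed. The level was 10% or less in every library that listed the window for 51 of these 52. The exception was H2bc18, an H2B gene on chromosome 3, at 20% of 10 reads in control replicate 2, with 1 of 107 and 0 of 34 reads methylated in FGR libraries and 0 of 76 in control replicate 1.

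The low level at member starts was found in every bin of CpG number compared. CpG-rich starts are commonly unmethylated in mammals, so windows were compared by the number of CpGs in their sequence. In windows with 5 to 9 CpGs, 19 member windows had 0.489% and 1.10% in FGR libraries and 0.473% and 1.71% in control libraries. Other genes with 5 to 9 CpGs had 54.7% and 56.5% in FGR libraries and 57.8% and 58.4% in control libraries. With 20 or more CpGs, other genes were low too, between 2.95% and 4.49% over the 4 libraries, and the 6 member windows of this kind lay between 0% and 2.01%. These 6 windows had 41 to 288 reads a library, and the 3 member windows with 0 to 4 CpGs had 5 to 69.

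**Figure D1:**
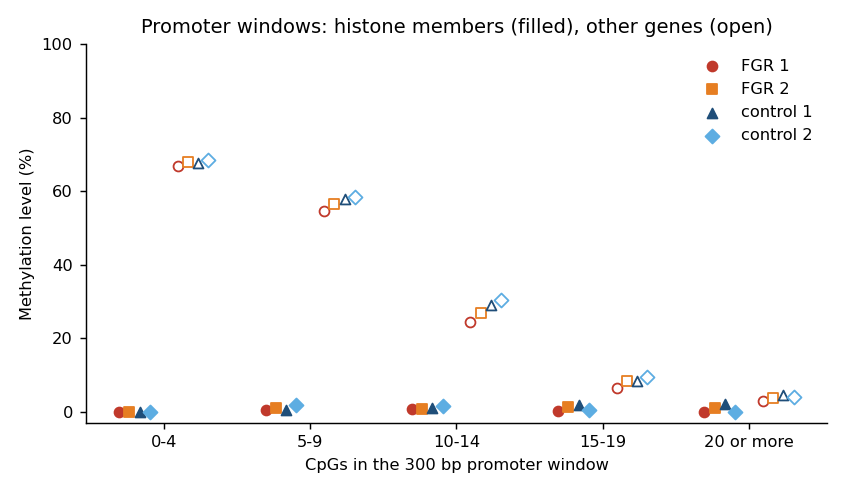
Methylation level of promoter windows (percent of reads, y axis) by the number of CpGs in the 300 bp window (x axis), for clustered histone genes without the testis genes (filled) and other autosomal genes (open), with 1 point per library. Pooled over the windows of a bin, members stay below 2.1% in each bin and library, although single windows reach up to 20%. Other genes lie at 66.7 to 68.3% with the fewest CpGs and at 2.95 to 4.49% with the most. Member points of the bin with the fewest CpGs rest on 5 to 69 reads.

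Levels of members were lowest around the start and rose on both sides. In the 200 bp before the start, members other than the testis genes had 0.515% and 0.964% in FGR libraries and 0.979% and 1.47% in control libraries. In the bin that begins 2000 bp before the start they had 41.1% and 57.8% in FGR libraries and 54.2% and 59.2% in control libraries, and in the bin from 1800 to 1999 bp after it 48.0% and 45.3% in FGR libraries and 57.7% and 51.7% in control libraries. At other genes the 200 bp before the start had 25.0% and 32.6% in FGR libraries and 31.9% and 33.98% in control libraries, and the outermost bin before it lay between 70.1% and 73.2%. In the bin that begins 1000 bp before the start, members lay between 13.5% and 23.1%, and other genes between 54.5% and 59.0%.

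**Figure D2:**
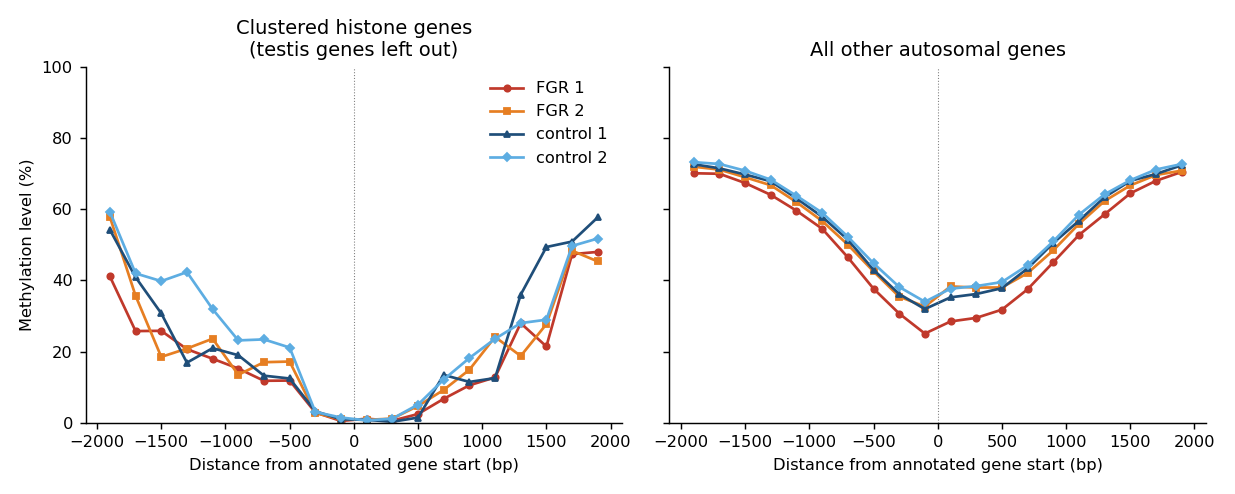
Methylation level (percent of reads, y axis) in bins of 200 bp by distance from the annotated start (x axis, bp, negative before the start), 1 line per library, for 59 starts of clustered histone genes (left) and 31334 starts of other genes (right). Member starts lie near 1% in every library and rise on both sides, and levels of other genes are at least 25.0% at the start.

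Single CpGs showed the same split. Of the CpGs listed in regions of members other than the testis genes, 69.3% and 64.7% had no methylated read in FGR libraries and 64.5% and 57.6% had none in control libraries. Among other autosomal CpGs this share was 5.37% and 4.46% in FGR libraries and 4.61% and 4.31% in control libraries. A mean of 6.47 to 7.76 reads per member CpG stood behind these shares.

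What the windows share in sequence was counted as matches on either strand, with each motif sought on its own. CCAAT, also a motif of many other promoters, was found in all 5 H1, all 17 H2A, all 16 H2B and all 10 H3 windows and in 3 of 11 H4 windows, against 37.3% of all 31396 windows. The octamer ATTTGCAT, known from H2B promoters, was found in 6 of 17 H2A and 6 of 16 H2B windows and in none of the H1, H3 and H4 windows, against 1.75% of all. Pairs of H2A and H2B genes transcribed away from each other accounted for all 10 overlaps between member windows, so a match can be counted for both genes of a pair. AAACACA, known from H1 promoters, was found in 4 of 5 H1 windows and in 7.28% of all. TATAAA was found in 4 of 5 H1, 10 of 17 H2A, 7 of 16 H2B, 4 of 10 H3 and 8 of 11 H4 windows, against 13.6% of all. The methylated window of H2bc1 and the unmethylated window of H2bc8 both hold the octamer and CCAAT, and both H1f6 and H1f4 hold AAACACA and CCAAT.

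Whole regions of members were far less methylated than those of other genes. Of the 69 members, the 3 pseudogenes were outside the gene classes tested. Of the 66 protein-coding members, 60 met the minimum of 3 CpGs and 10 reads per library. Their median region level was 6.94% and 9.41% in FGR libraries and 8.72% and 9.90% in control libraries, whereas 31981 other gene regions had medians of 73.8% and 74.9% in FGR libraries and 75.5% and 76.0% in control libraries. Members minus other genes came to -66.3 ± 0.654 points (SD over 4 libraries), lower in 4 of 4 libraries. The two-sided exact sign-flip test gave p = 0.13, the smallest that 4 libraries allow. Most members are short, so their regions consist largely of sequence near the start. With gene spans alone, without the 1000 bp on either side, 10 members could be measured and the difference was -61.5 points.

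**Figure D3:**
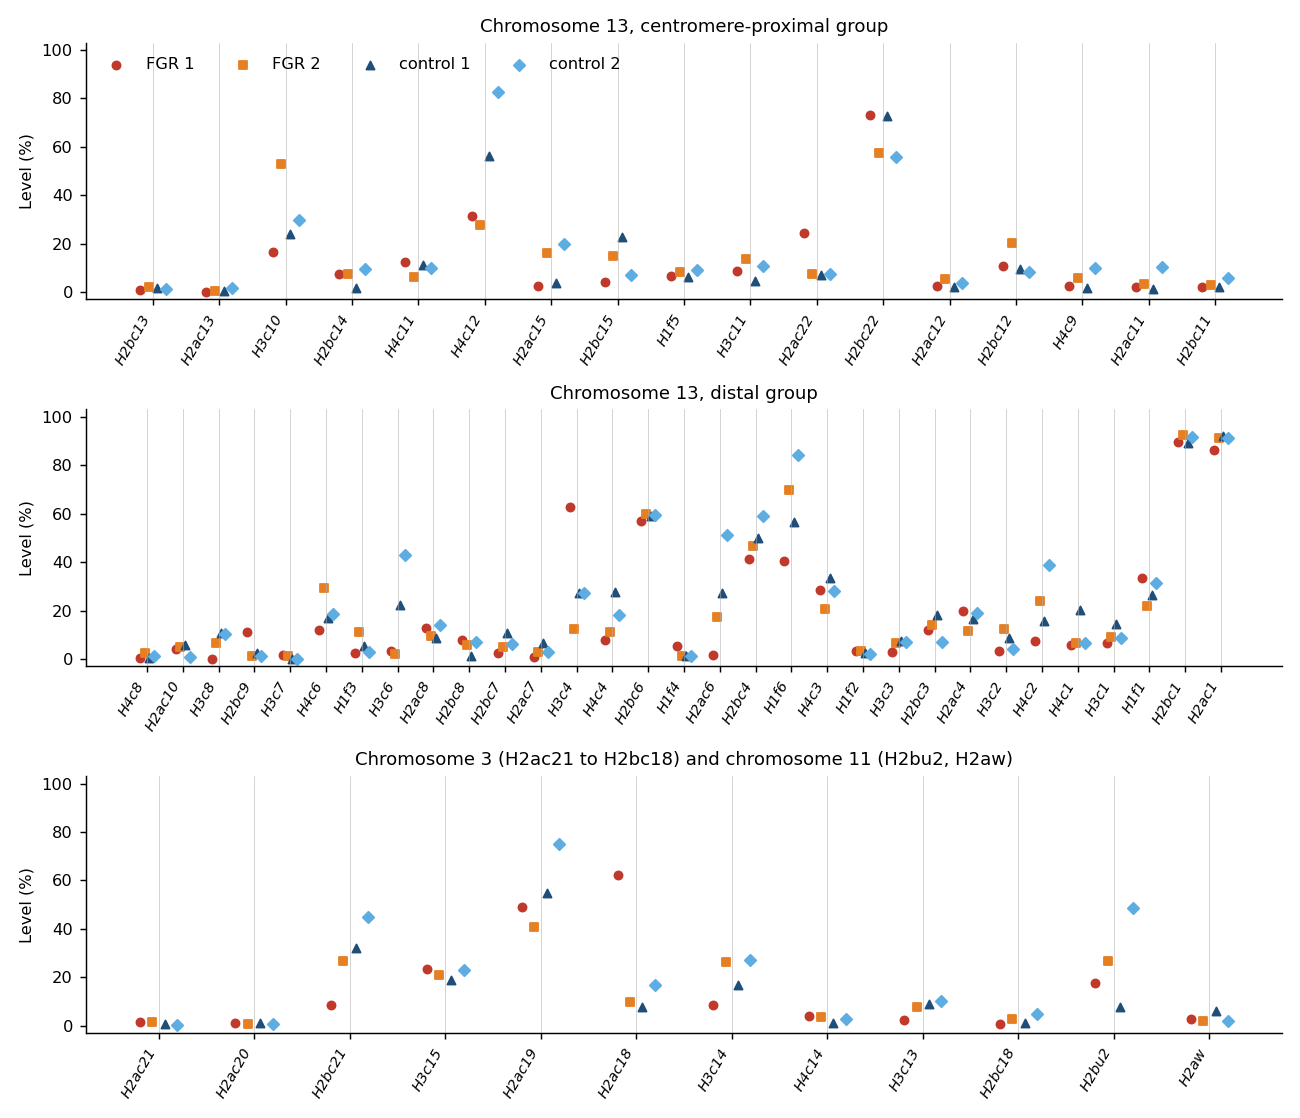
Methylation level (percent of reads, y axis) of each of the 60 measured member regions in map order (x axis), with 1 point per library. Most members lie below 40% in every library, and H2bc1 and H2ac1 lie above 86% in all 4.

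By mean level over the 4 libraries, 31 of the 60 members lay under 10%, 21 between 10% and 40% and 8 at 40% or more. The 8 comprised the 3 testis genes, 3 H2B genes with spans over 2000 bp and the short genes H2ac19 and H4c12. The long H2B genes were H2bc22 with a span of 14079 bp and a mean of 64.8%, H2bc6 with 37455 bp and 58.7% and H2bc4 with 8282 bp and 49.3%. H2bc6, with the most CpGs listed in all 4 libraries on chromosome 13, had 56.8% and 59.7% in FGR libraries and 58.9% and 59.3% in control libraries.

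Among H1 genes other than H1f6, the linker histone gene H1f4 had the lowest mean, 2.22%, and H1f1 the highest, 28.4%. H1f1 had 33.6% and 22.01% in FGR libraries and 26.4% and 31.5% in control libraries, and the groups overlapped. The median over the 5 genes lay between 2.72% and 8.27% in the 4 libraries.

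Among 15 H2A genes measured, H2ac13 on chromosome 13 had 0% and 0.619% in FGR libraries and 0.526% and 1.72% in control libraries. The 0 of 188 reads in FGR replicate 1 allows up to 1.60%. On chromosome 3 the neighbours H2ac20 and H2ac21 were the lowest. H2ac20 had 1.19% and 0.791% in FGR libraries and 0.971% and 0.704% in control libraries, and H2ac21 had 1.75% and 1.48% in FGR libraries and 0.935% and 0.467% in control libraries. H2ac19, an H2A gene in the duplicated part of the chromosome 3 cluster, was the highest there, with 48.9% and 40.6% in FGR libraries and 54.7% and 74.9% in control libraries. At the 16 CpGs of H2ac19 listed in both groups it had 69.6% in FGR and 68.1% in control. At its 4 CpGs listed in all 4 libraries it had 41.7% and 70% in FGR libraries and 56% and 67.4% in control libraries, and the groups overlapped.

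On chromosome 11, where 2 members were measured, H2aw, an H2A gene, had 2.92% and 1.97% in FGR libraries and 6.25% and 1.77% in control libraries. H2bu2, an H2B gene beside it, had 17.8% and 26.8% in FGR libraries and 7.74% and 48.7% in control libraries. The 2 control libraries lay on either side of both FGR libraries for each gene.

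H3 and H4 genes, whose proteins form the core tetramer of the nucleosome, had medians of 9.64% and 13.1% over the mean levels of 12 and 10 measured genes. H3c7 was the lowest of chromosome 13, with 1.69% and 1.15% in FGR libraries and 0% and 0% in control libraries. The 0 of 314 and 0 of 83 reads in control libraries allow up to 0.955% and 3.61%. H4c8 was the lowest H4 gene with a mean of 1.11%, and H4c12 the highest with 49.5%.

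Of the testis genes, H2bc1 and H2ac1 had higher mean levels than all other measured members, whereas H1f6 did not. Over their regions H2bc1 had 89.4% and 92.3% in FGR libraries and 89.3% and 91.8% in control libraries, over 131 to 390 reads. H2ac1 had 86.3% and 91.1% in FGR libraries and 92.0% and 91.1% in control libraries. H1f6 had 40.7% and 69.8% in FGR libraries and 56.6% and 84.2% in control libraries, wider apart within each group than H2bc1 and H2ac1. Its mean of 62.8% lay below that of H2bc22, which is not a testis gene, at 64.8%. The 3 testis genes pooled had 70.9% and 87.0% in FGR libraries and 75.4% and 90.2% in control libraries, against 18.8% and 23.03% in FGR libraries and 25.1% and 28.7% in control libraries for the other 66 members. The difference was 57.0 ± 6.78 points (SD over 4 libraries), higher in 4 of 4 libraries (two-sided exact sign-flip p = 0.13, the smallest possible).

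In each cluster, member regions had lower levels than the sequence between them. On chromosome 13 the members form a group nearer the centromere (24 members, 21714711 to 22044658 bp) and a distal group (32 members, 23530044 to 23935913 bp). In the distal group, member regions had 25.5% and 31.1% in FGR libraries and 32.03% and 35.5% in control libraries, and the sequence between them had 77.2% and 77.9% in FGR libraries and 77.2% and 78.9% in control libraries. In the group nearer the centromere, the sequence between regions was lower, at 55.8% and 54.7% in FGR libraries and 57.6% and 60.01% in control libraries. Member regions there had 19.9% and 20.7% in FGR libraries and 18.7% and 24.7% in control libraries. On chromosome 3, regions of the 10 members lay between 10.2% and 26.0% over the 4 libraries and the sequence between them between 74.7% and 80.7%. On chromosome 11 the 3 member regions lay between 11.1% and 25.2%, and the sequence between them, with 6 to 18 CpGs a library, between 87.8% and 97.4%. Inside member regions, gene spans on chromosome 13, pooled over their CpGs, had higher levels than their flanks in every library of both groups of members. On chromosomes 3 and 11 gene spans had lower levels than their flanks in every library. The chromosome 13 spans include the long genes H2bc22, H2bc6 and H2bc4 and the testis genes, and their part in these levels was not tested. In FGR replicate 2 the H2bc6 region, flanks included, held 1813 reads, against 3558 in all distal gene spans. In the 200 bp after the start, members of all clusters without the testis genes lay between 0.673% and 1.14%.

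**Figure D4:**
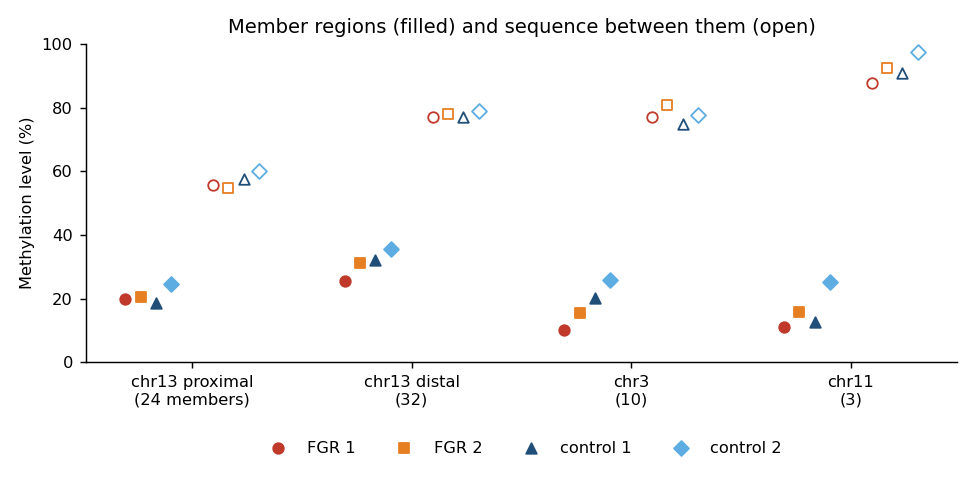
Methylation level (percent of reads, y axis) inside member regions (filled) and between them (open) in the 4 groups of clustered histone genes (x axis), 1 point per library. Filled points lie at 35.5% or less and open points at 54.7% or more in every group and library.

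Of the protein-coding members, 6 could not be compared, and they lie side by side in the group nearer the centromere. They are H2bc23, H2ac23, H4c17, H4c18, H2ac24 and H4bc24, formerly Hist1h2br. No library listed a CpG in the regions of 3 of them, H2bc23, H2ac23 and H4bc24. The promoter windows of H2bc23 and H4bc24 are identical over all 300 bp, those of H4c17 and H4c18 share an unbroken stretch of 285 bp and those of H2ac23 and H2ac24 one of 200 bp. On chromosome 3, H3c15 and H3c14 share a stretch of 231 bp and H2ac19 and H2ac18 one of 219 bp. No library listed a CpG in the windows of H3c15 and H3c14. How reads that match both copies of a pair were handled is not stated, so values of these copies are uncertain. The neighbours H2ac20 and H2ac21 share no stretch over 14 bp. The 3 pseudogenes, H2ac14, H2ac5-ps and H2bu1-ps, were outside the gene classes tested and are counted only in the pooled levels.

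The comparison of FGR with control libraries asked whether growth restriction before birth went with another methylation level at these genes. Pooled over the members, the level was 21.1% and 25.7% in FGR libraries and 26.9% and 30.7% in control libraries. Both FGR libraries lay below both control libraries, with means of 23.4 ± 3.20% in FGR and 28.8 ± 2.66% in control (SD, n = 2 each) and a difference of -5.44 points. The level over all autosomal CpGs had the same order of groups. The two-sided exact permutation test gave p = 0.33, the smallest that 2 against 2 libraries allow, so the design cannot reach 0.05. Without FGR replicate 1 the difference was -3.17 points and without control replicate 2 it was -3.56 points. Over gene spans alone it was -10.3 points, over CpGs with at least 10 reads -8.46 points, and over the 1228 CpGs listed in both groups -3.49 points, with 28.4% in FGR and 31.9% in control. Gene spans alone could be tested for 10 members, 6 with a higher and 3 with a lower FGR mean and a median difference of 0.620 points. At CpGs listed in all 4 libraries the pooled difference over gene spans was -2.06 points. Members had 1126 and 1598 listed CpGs in FGR libraries and 1105 and 1082 in control libraries, and the part of differing CpG lists in the difference was not tested.

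At the 160 CpGs listed in all 4 libraries, levels were 35.6% and 41.7% in FGR libraries and 38.8% and 41.2% in control libraries, and the groups overlapped. The difference was -1.32 points (two-sided exact permutation p = 1). It was 1.74 points without FGR replicate 1, -4.37 points without FGR replicate 2, -2.49 points without control replicate 1, -0.142 points without control replicate 2, and 1.40 points as a mean of the levels of single CpGs.

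By family over all listed CpGs, both FGR libraries lay below both controls for H2A, H2B, H3 and H4 and not for H1. The same order held for 24.5% of all gene regions and for the level over all autosomal CpGs. Regions of H2A and H2B genes overlap in part, so the families are not independent of each other. H2A genes had 5.41% and 8.77% in FGR libraries and 10.01% and 14.2% in control libraries, and H4 genes had 7.98% and 10.5% in FGR libraries and 13.8% and 13.8% in control libraries. H2B genes had 26.6% and 33.1% in FGR libraries and 34.03% and 39.6% in control libraries, and H3 genes had 7.66% and 10.1% in FGR libraries and 10.8% and 10.9% in control libraries. H1 genes had 9.22% and 8.30% in FGR libraries and 8.19% and 8.33% in control libraries. These family levels leave out the testis genes. At CpGs listed in all 4 libraries the groups overlapped for H1, H2A, H2B and H3, and for H4 both FGR libraries, at 42.6% and 40.8%, lay above both control libraries, at 40.7% and 37.4%. Each two-sided exact permutation p over these 6 assignments is 0.33 or larger.

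No member region passed the test between the groups. With a quasi-binomial model fitted to all 32041 autosomal gene regions, with p-values adjusted by Benjamini and Hochberg and calls made below 0.05 when the groups were 10 or more points apart, 0 of 60 members were called and 0% of all regions. The smallest adjusted p among members was 0.689. At an unadjusted p under 0.05 there were 4 members, H3c6, H4c12, H2ac19 and H2bc21, which is 6.67% of the 60, against 6.43% of all regions. With limma on log ratios of methylated to unmethylated reads, 0 members were called and 6 of 60 had an unadjusted p under 0.05, against 6.11% of all regions. Of the 60 members, 34 had a lower and 26 a higher FGR mean, so that 56.7% were lower, against 61.6% of all regions. The groups did not overlap for 17 members, 28.3%, against 35.8% of all regions. Of these, 12 had both FGR libraries below both controls (20%, against 24.5% of all regions) and 5 above (8.33%, against 11.3%). The median difference was -0.955 points over members and -1.09 points over all regions, and 41 of the 60 members differed by under 5 points.

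The largest lower value was that of H4c12, an H4 gene at chr13:21750145-21750553. Its region had 31.3% and 27.7% in FGR libraries over 99 and 141 reads, against 56.4% and 82.6% in control libraries over 39 and 23 reads. Both FGR libraries were below both controls, and the difference was -40.0 points (FGR mean 29.5 ± 2.58% and control mean 69.5 ± 18.5%, SD, n = 2 each; adjusted p = 0.689 in the quasi-binomial model). At the 3 CpGs listed in all 4 libraries it was 92.9% and 93.8% in FGR libraries and 88.9% and 88.9% in control libraries, 4.41 points higher. At the 6 CpGs listed in both groups it was 73.9% in FGR and 74.5% in control. The libraries listed 17 and 22 CpGs of this region in FGR and 6 and 4 in control.

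H3c6, an H3 gene of the distal group, had 3.45% and 1.96% in FGR libraries and 22.1% and 42.9% in control libraries, a difference of -29.8 points (FGR mean 2.70 ± 1.05% and control mean 32.5 ± 14.7%, SD, n = 2 each; adjusted p = 0.689). Both FGR libraries were below both controls. At the 12 CpGs listed in both groups it had 5.26% in FGR and 10% in control, a difference of -4.74 points, and too few CpGs were listed in all 4 libraries for the test.

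H2ac6, an H2A gene, had 1.57% and 17.5% in FGR libraries and 27.3% and 51.1% in control libraries, a difference of -29.7 points with both FGR libraries below both controls (adjusted p = 0.813). At the 22 CpGs listed in both groups the difference was -15.5 points. H2bc21, an H2B gene on chromosome 3, had 8.74% and 26.9% in FGR libraries and 31.9% and 44.95% in control libraries, a difference of -20.6 points with both FGR libraries below both controls (adjusted p = 0.773). At the 5 CpGs listed in all 4 libraries it had 44% and 48.3% in FGR libraries and 58.5% and 42.9% in control libraries, and the groups overlapped.

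The groups overlapped for each of the 4 members with the largest higher values. H2ac18, an H2A gene on chromosome 3, had 62.1% and 9.68% in FGR libraries and 7.61% and 16.9% in control libraries, a difference of 23.6 points with 29 reads behind the value of FGR replicate 1. H3c4, an H3 gene, had 62.9% and 12.2% in FGR libraries and 27.4% and 27.3% in control libraries, 10.2 points higher over all listed CpGs and -12.96 points at the 13 CpGs listed in both groups. H2ac22, an H2A gene, had 24.6% and 7.43% in FGR libraries and 6.90% and 7.56% in control libraries. H3c10, an H3 gene, had 16.7% and 52.7% in FGR libraries and 24.1% and 29.6% in control libraries. At the CpGs listed in both groups H2ac18, H2ac22 and H3c10 kept their direction, with 14.3 points for H2ac18, 7.64 points for H2ac22 and 8.90 points for H3c10. At its 2 CpGs listed in all 4 libraries, too few for the test, H2ac18 had 88.9% and 75% in FGR libraries and 58.3% and 45% in control libraries, with both FGR libraries above both controls. The adjusted p-values of the 4 members in the quasi-binomial model lay between 0.948 and 0.995.

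At CpGs listed in all 4 libraries, 26 members could be tested and 0 were called, against 2 of 24436 regions, 0.00818%. At an unadjusted p under 0.05 there were 2 members, H3c13 and H2bc18, whose overlapping regions share these 5 CpGs, against 5.79% of all regions. With limma 0 were called and 4 of 26 had an unadjusted p under 0.05, against 5.59% of all regions. The FGR mean was lower for 13 of the 26, 50% against 53.7% of all regions, higher for 10 and equal for 3. The groups did not overlap for 7 members, against 32.8% of all regions, with 4 lower and 3 higher in FGR. The median difference was -0.582 points over members and -0.295 points over all regions.

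Among these 26 members the largest differences were small beside those over all listed CpGs. H2bc15, an H2B gene, had 11.4% and 29.8% in FGR libraries and 33.3% and 23.8% in control libraries, a difference of -7.996 points with overlapping groups. H4c1, an H4 gene, had 47.8% and 46.4% in FGR libraries and 56.8% and 52.2% in control libraries, a difference of -7.37 points with both FGR libraries below both controls. H2bc4, an H2B gene, had 42.3% and 64.8% in FGR libraries and 62.1% and 59.5% in control libraries, -7.26 points with overlapping groups. H4c3, an H4 gene, had 47.7% and 40.9% in FGR libraries and 50% and 52.7% in control libraries, -7.05 points with both FGR libraries below both controls. Their adjusted p-values lay between 0.964 and 0.983.

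**Figure D5:**
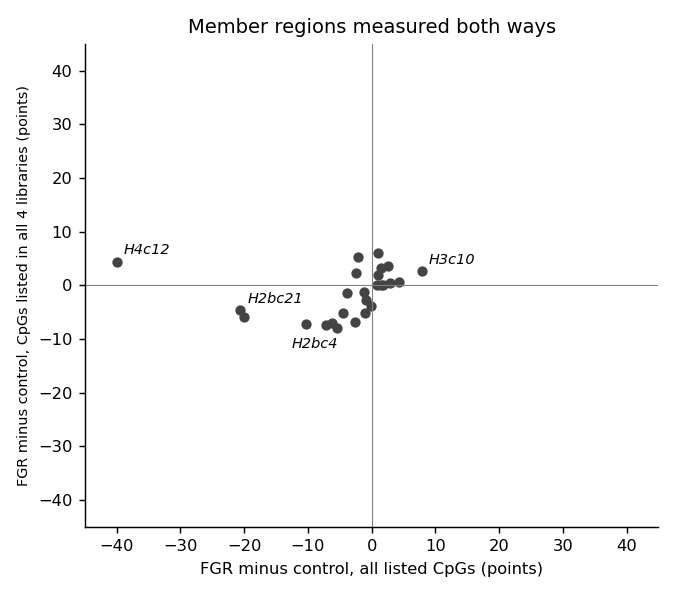
FGR minus control difference in percentage points for the 26 members measured both ways, over all listed CpGs (x axis) and at CpGs listed in all 4 libraries (y axis), 1 point per member. Differences reach -40.0 points over all listed CpGs and stay within 8 points at shared CpGs for these 26, where H4c12 lies on the other side of 0.

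Promoter windows could be compared between groups for 8 members, and 0 were called, against 0% of 1956 windows. No member window had an unadjusted p under 0.05, against 4.91% of all windows, and limma called 0 as well, with no member and 5.57% of all windows at an unadjusted p under 0.05. H2ac20, for example, had 2.78% and 2.90% in FGR libraries and 0% and 0% in control libraries, over 20 to 69 reads. With the levels at these starts close to 0 in both groups, a lower level in FGR was not detectable at this depth.

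Genes outside the clusters that encode other histones or act on histones were measured beside the members. Of 10 replication-independent histone genes, 14 genes of histone mRNA transcription and processing and 13 histone chaperone genes, 0 were called in each list, and 1, 2 and 2 had an unadjusted p under 0.05, against 6.43% of all regions. Lower FGR means were found for 7, 11 and 10 of them, against 61.6% of all regions, and higher ones for 3 in each list. The median difference of the replication-independent histone genes was -4.98 points over all listed CpGs and 0.711 points at shared CpGs, where 5 were measured. For the transcription and processing genes it was -7.35 points over all listed CpGs and -0.397 points at shared CpGs, and for the chaperone genes -2.21 points and 2.54 points at shared CpGs. The largest difference was at H1f0, the replacement linker histone of cells that have stopped dividing, with 52.9% and 41.5% in FGR libraries and 9.32% and 3.03% in control libraries over 70 to 161 reads. Both FGR libraries were above both controls, and the adjusted p was 0.689. Asf1b, a chaperone of H3 and H4, had 22.1% and 62.6% in FGR libraries and 84.3% and 77.8% in control libraries (adjusted p = 0.777 in the quasi-binomial model).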

How the data were processed

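Per the submitters' processing notes, reads were processed with Trim Galore 0.6.5, Bismark and methylKit 1.28.0 on mm10; their parameters are not stated there. The deposited tables, per the file headers, give for each CpG cytosine on each strand the coverage as a count of reads and the percent of reads with C or T, and the lowest listed coverage is 5. Coverage times percent gave whole reads within 0.02 for 100% of cytosines. Neither the conversion rate nor duplicate removal is stated.

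Strands were summed per CpG, and the 0.1% of CpGs with the highest coverage in each library were left out. Gene spans and promoter windows came from RefSeq tables of GRCm38.p6. Regions needed 3 CpGs (promoter windows 2) and 10 reads per library. Group was the single term of a quasi-binomial model of the reads, in which squeezeVar of limma 3.58.1 (R 4.3.3) moderated the overdispersion along coverage, with a floor of 1. Tests were tested on simulated data. When the first version of the model found no changed promoter in simulated data, the prior was restricted to regions with at least 5 methylated and 5 unmethylated reads. This was done after that version had been run on these libraries; it called 0 members too, and at shared CpGs it called 0 regions, against 2 with the restricted prior, with 1115 against 1414 regions at an unadjusted p under 0.05. limma on log2 ratios with 0.5 added to each count, and other settings, are under the dependence on processing.

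Members and lists were chosen with earlier results of these data known. H2af-ps2 on chromosome 13, formerly Hist1h2al, lies apart from the clusters and was left out. Named are, per chromosome, the 2 members with the lowest and the 2 with the highest level and the one with most shared CpGs, the 4 largest differences in each direction, the 4 largest at shared CpGs, the testis genes, and any called. The extremes of each family, the other members at 40% or more, those shown by sequence beside the testis genes, those with an unadjusted p under 0.05 and H2bc18 as an exception at its start were named after their values were seen.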

Additional observations from a re-analysis of the deposited data

How the results depend on the processing

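The count of 0 called members held under the settings tried: limma, 20 reads, the highest coverage CpGs kept, no minimum difference, no flank (10 members measured, 5 at shared CpGs, not run for promoter windows), each library left out, the replicate block, and the prior from all regions, which was added after seeing the data. Members and other genes kept their direction, with -59.1 points at shared CpGs and a range of -66.6 to -66.1 points with 1 library left out, and the testis genes kept theirs, with 40.1 points without flanks, 52.7 points at shared CpGs and 54.6 to 59.2 points with 1 library left out. The pooled member level kept its direction over all listed CpGs, from -10.3 points without flanks to -3.49 points at CpGs listed in both groups, a setting added after seeing the data, and from -7.70 to -3.17 points with 1 library left out. At shared CpGs its direction turned, to 1.40 points as a mean of CpG levels, and it ranged from -4.37 to 1.74 points with 1 library left out; the cause was not tested. CpGs with at least 10 reads in all 4 libraries gave no value. The labels do not tie equal replicate numbers together, and same-numbered libraries did not deviate together (r = 0.0216 over gene regions, 0.00129 at shared CpGs, across regions that are not independent). With the replicate block 0 members were called, 2335 regions had an unadjusted p under 0.05 against 2059 without it (1301 against 1414 at shared CpGs, 6 against 96 promoter windows), and the pooled differences were -5.44 points and, at shared CpGs, -1.32 points. Depth limits these data: 160 of 2607 member CpGs were listed in all 4 libraries, and 8 of 62 member promoter windows could be tested.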
